A study of Homo sapiens with 4 samples.

Results

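The genes described here are the 7 that set the phosphorylation of eIF2alpha, the regulatory subunit of the factor that brings the initiator tRNA to the ribosome. They are the 4 kinases EIF2AK1 (HRI), EIF2AK2 (PKR), EIF2AK3 (PERK) and EIF2AK4 (GCN2), the 2 phosphatase subunits PPP1R15A (GADD34) and PPP1R15B (CReP), and the substrate EIF2S1 itself. They were chosen by name and function and make up 7 of the 15942 genes in the table, and all 7 had enough counts to be tested. Total RNA was sequenced from the human embryonic stem cell line H9, an established line, grown on Matrigel in DMEM/F12 with E8. Control cells had received the siRNA labelled siLuc (2 libraries), and the others had received an siRNA against UPF1 (siUPF1, 2 libraries), the RNA helicase at the centre of nonsense-mediated mRNA decay. The labels' shared treatment text also names siUPF3A and an actinomycin D time course, and ties neither a time nor a drug to any library. Both control count columns carry the same heading, so the controls are called a and b here. The labels name no separate cultures behind the libraries of a group, and p-values therefore reflect the spread among these samples, which may be technical.

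Each kinase answers to a different stress: EIF2AK1 to heme shortage and to mitochondrial stress relayed by DELE1, EIF2AK2 to double-stranded RNA, EIF2AK3 to unfolded protein in the endoplasmic reticulum, and EIF2AK4 to uncharged tRNA and stalled ribosomes. All of them phosphorylate the same serine of eIF2alpha, which blocks its exchange factor eIF2B, lowers most protein synthesis and lets a few mRNAs with upstream open reading frames, ATF4 among them, be translated more. Protein phosphatase 1 reverses the mark when it is brought to eIF2alpha by PPP1R15B, which is made constitutively, or by PPP1R15A, which is induced by ATF4 and its partners and closes a feedback loop. mRNA levels say nothing directly about kinase activity or about phosphorylation, neither of which was measured here.

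The site on which the pathway turns lies in exon 2 of the 8 exons of EIF2S1, at chr14:67364909-67364935 on the plus strand of GRCh38. It is shown because it is the shared target of the 4 kinases and of both phosphatase complexes. The capitals mark the codon of the phosphorylated serine, codon 52 counted with the initiator methionine and 51 without it.
EIF2S1: cttagtgaattaTCCagaaggcgtatc

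PPP1R15A reaches the phosphatase through a short docking motif near the end of the protein, and the matching coding stretch is shown because PPP1R15A gave the widest gap between the groups. The capitals mark the motif's codons, 555 to 558. The stretch is joined across an intron, from exon 2 into the next exon (outer bounds chr19:48874887-48875631, plus strand, GRCh38).
PPP1R15A: aaggccagaAAGGTGCGCTTCtccgagaag

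Library totals ran from 8887239 to 11200973 counts. UPF1, the targeted gene, stood at 212 ± 10.1 CPM (counts per 1000000, scaled by edgeR's TMM factors, SD, n = 2) in the controls and at 69.5 ± 12.3 in the siUPF1 libraries, a log2 fold change of -1.60 (edgeR quasi-likelihood test, adjusted p = 1.06e-102, at most 6.44e-05 over the alternatives run). Across all genes 2613 passed the test as higher (16.8% of 15557) and 1422 as lower (9.14%), and the median log2 fold change was -0.01. All 10 pluripotency markers were in the table, and their summed level was 2238 to 2386 CPM in the controls and 1968 to 2114 after siUPF1, with 5 of them lower by the test and none higher. These 5 were DNMT3B, SOX2, ZFP42, POU5F1 and NANOG, at 0.888, 0.579, 0.519, 0.874 and 0.444 reads per transcript base (mean count over length). Among all genes tested at 0.5 reads per base or more, 15.8% fell and 2.15% rose. How much of the lower marker levels goes with read density was not tested. Summed markers of neural ectoderm (5 of 6 in the table) went from 460–469 to 404–418 CPM, of mesoderm (2 of 6) from 190–197 to 171–172, of endoderm (3 of 6) from 15.7–17.0 to 18.1–23.9, of trophoblast and amnion (4 of 6) from 16.4–17.2 to 22.2–23.6, of fibroblast (4 of 6) from 531–546 to 543–565 and of blood (2 of 4) from 5.43–6.58 to 4.28–4.90. By edgeR's test 0 rose and 2 fell among the neural markers (DCX to 0.462-fold and NCAM1 to 0.589-fold, while NES, which carries most of that sum, stood at 1.01-fold), 0 and 1 among the mesoderm markers (MIXL1, 0.568-fold), 2 and 1 among the endoderm markers (AFP 1.84-fold and CXCR4 1.54-fold up, FOXA2 to 0.128-fold), 2 and 0 among the trophoblast and amnion markers (GATA3 and CGA), 1 and 0 among the fibroblast markers (PDGFRB) and 0 and 0 among the blood markers. SOX17, GATA4, GATA6, T, EOMES, MESP1, CDX2, HAND1 and PTPRC, which define several of these types, have no row in the table used. The part that these shifts play in the values of the 7 genes was not tested, and in bulk RNA a change in the share of a cell type and a change in RNA per cell cannot be told apart.

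After UPF1 knockdown the phosphatase subunit PPP1R15A and the kinase EIF2AK3 were higher, by 1.82-fold and 1.25-fold. The other 5 genes, EIF2AK1, EIF2AK2, EIF2AK4, PPP1R15B and EIF2S1, did not pass the test in either direction, and their log2 fold changes lay between -0.08 and 0.02. So 2 of 7 genes rose and 0 fell by edgeR's quasi-likelihood test at an adjusted p of 0.05, against 16.8% and 9.14% of all genes tested; the same 2 and 0 were found at an unadjusted p of 0.05 and with DESeq2. The count is close to that background and is not a result about the 7 genes as a group. Their median log2 fold change was -0.01, the same as that of all genes tested to 2 decimals. The siUPF1 pair was entirely above the control pair for PPP1R15A and EIF2AK3, 2 of the 7 genes (32.3% of all genes tested), and entirely below it for EIF2AK1 and PPP1R15B (31.1%).

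**Figure D1:**
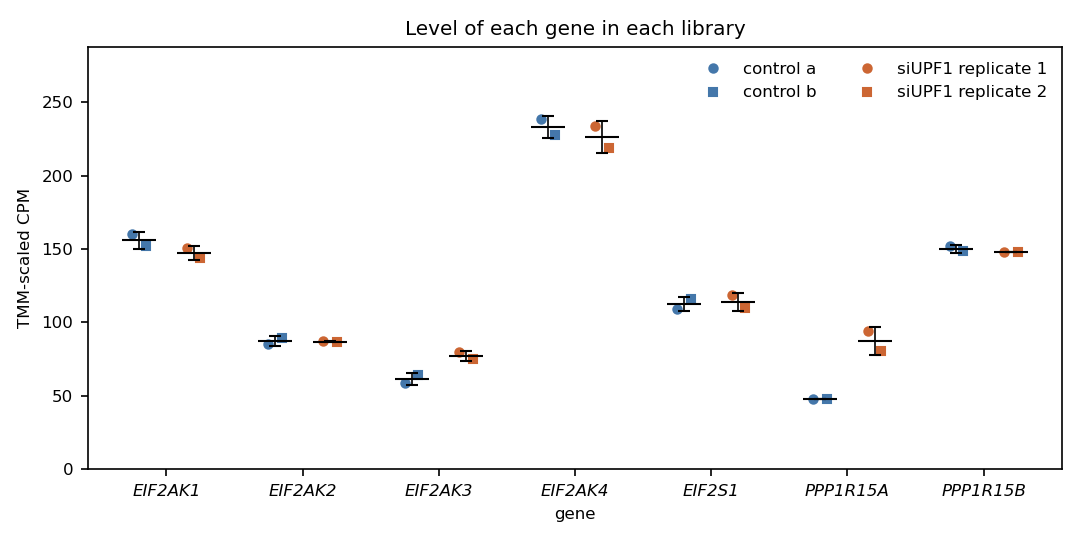
Level of each of the 7 genes in each library, in TMM-scaled CPM (vertical axis, linear, from 0). Blue points are the 2 controls and orange points the 2 siUPF1 libraries, with the mean (long bar) and SD (whiskers) of each pair. PPP1R15A and EIF2AK3 stand higher in both siUPF1 libraries than in both controls, and EIF2AK2, EIF2AK4 and EIF2S1 overlap between the groups.

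PPP1R15A showed the widest gap between the groups among the 7 genes. It had 423 and 479 counts in controls a and b, and 939 and 901 in siUPF1 replicates 1 and 2. Scaled, these were 47.9, 47.8, 93.9 and 80.3 CPM. The controls were nearly equal, both siUPF1 libraries were far above them, and replicate 1 was the higher of the pair. The means were 47.8 ± 0.050 CPM in the controls and 87.1 ± 9.67 CPM after siUPF1 (SD, n = 2 each), a log2 fold change of 0.86 (SE 0.08, 95% interval 0.70 to 1.02, edgeR adjusted p = 5.36e-24). Any siUPF1 library taken against any control gave a log2 ratio of 0.75 to 0.98, while the siUPF1 libraries differed from each other by -0.23 (replicate 2 minus 1). The size of the change was larger than that of 95.1% of all genes tested, and PPP1R15A ranked 528th of the 2613 genes that rose by fold. Its log2 fold change stayed between 0.75 and 0.97 over 12 alternative analyses, 1 of them the same fit read at an adjusted p of 0.1. In the alternatives that kept all 4 libraries its adjusted p stayed under 0.05. The highest of these was 0.000261 in edgeR's test, when a trend with read density was removed.

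PPP1R15B, the constitutive partner, did not pass the test. Its CPM values were 152.2 and 148.4 in controls a and b, 148.0 in siUPF1 replicate 1 and 147.7 in replicate 2. The siUPF1 libraries were both lower than the controls, and the group means, 150 ± 2.70 and 148 ± 0.187 CPM, lay closer together than the controls did to each other. The log2 fold change was -0.02 (SE 0.07, 95% interval -0.16 to 0.11, edgeR adjusted p = 0.840), an interval that leaves room for a change of either sign smaller than that of PPP1R15A.

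Per kilobase of transcript, a scale that corrects for length only, PPP1R15A stood below PPP1R15B in the controls and above it after siUPF1. Mean counts in the table reached at most 1.12 reads per transcript base among genes with at least 100 counts. Whether differences between genes are compressed on this scale was not tested. The ratio of the PPP1R15A level to the PPP1R15B level was 0.696 in control a and 0.713 in control b, and 1.41 and 1.20 in siUPF1 replicates 1 and 2. The groups did not overlap, and every value after siUPF1 was above 1. The numerator moved: PPP1R15A went from 20.1 ± 0.021 to 36.7 ± 4.07 CPM per kilobase, and PPP1R15B from 28.6 ± 0.514 to 28.1 ± 0.0356.

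EIF2AK3, the kinase of the endoplasmic reticulum membrane, passed the test with a smaller change. It had 517 and 645 counts in controls a and b, and 794 and 839 in siUPF1 replicates 1 and 2. In CPM these were 58.5, 64.3, 79.4 and 74.7. Both siUPF1 libraries lay above both controls, and control a was the lowest of the 4. The means were 61.4 ± 4.14 CPM in the controls and 77.1 ± 3.32 CPM after siUPF1, a log2 fold change of 0.32 (SE 0.08, 95% interval 0.17 to 0.48, edgeR adjusted p = 0.000436), which is 1.25-fold (1.12 to 1.40). Single pairs of libraries gave log2 ratios of 0.22 to 0.44. Among the 2613 genes that rose, EIF2AK3 ranked 1902nd by fold, and 77.0% of all genes tested had a smaller change in either direction. The call rested in part on control a: without it the log2 fold change was 0.26 and edgeR's adjusted p 0.121, while the other 11 alternatives kept the adjusted p under 0.05, from 9.9e-05 to 0.0422, the latter with DESeq2.

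The other 3 kinases did not pass. EIF2AK1, the heme-regulated kinase, had 160.0 and 151.7 CPM in the controls and 150.7 and 143.9 CPM after siUPF1, so that both siUPF1 libraries were lower, by a log2 fold change of -0.08 (SE 0.07, 95% interval -0.22 to 0.06, edgeR adjusted p = 0.418). EIF2AK2, the double-stranded RNA sensor, had 85.0 and 89.5 CPM in the controls and 86.9 in both siUPF1 libraries, between the controls, with an interval of the log2 fold change from -0.15 to 0.14. EIF2AK4, the uncharged tRNA sensor, had 238.3 and 227.8 CPM in the controls and 233.9 and 218.7 CPM after siUPF1, groups that overlapped, with an interval of -0.18 to 0.10. None of these 3 intervals reached the point estimate of EIF2AK3, 0.32; a test of the difference between kinases was not run. EIF2S1, the substrate, had 109.3 and 115.9 CPM in the controls and 118.5 and 109.7 CPM after siUPF1, with a log2 fold change of 0.02 (95% interval -0.12 to 0.16), and its groups overlapped.

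**Figure D2:**
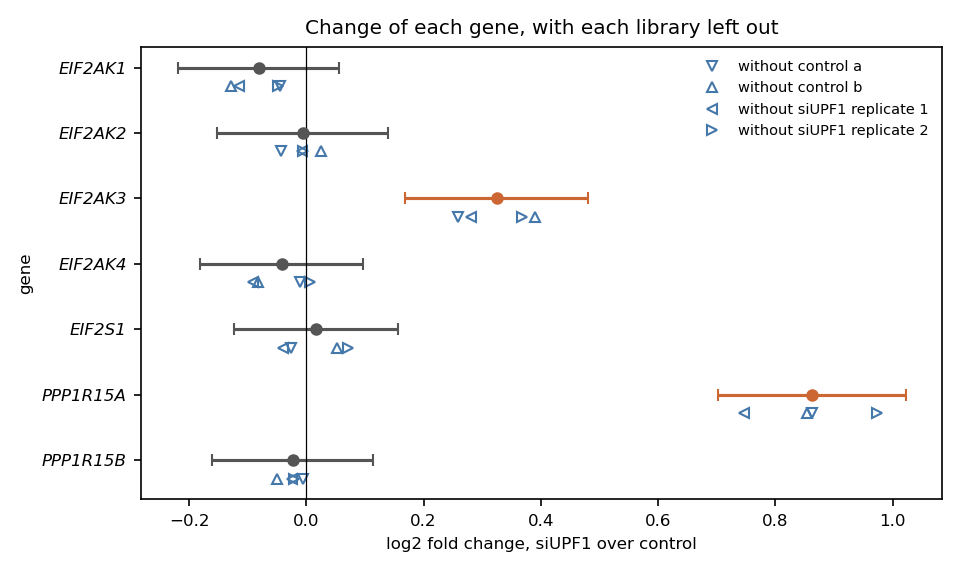
Log2 fold change of each gene, siUPF1 over control (horizontal axis), with its 95% interval from edgeR (filled points and bars, orange where the test was passed). Open triangles give the change with each of the 4 libraries left out; those of PPP1R15A run from 0.75 to 0.97, those of EIF2AK3 from 0.26 to 0.39, and those of EIF2AK2, EIF2AK4 and EIF2S1 fall on both sides of 0.

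In control cells the levels per kilobase ran from EIF2AK4 at the top (42.2 ± 1.35 CPM per kilobase) through EIF2AK1 (39.8 ± 1.49), PPP1R15B (28.6 ± 0.514), EIF2S1 (27.1 ± 1.13), EIF2AK2 (21.7 ± 0.796) and PPP1R15A (20.1 ± 0.021) to EIF2AK3 (15.9 ± 1.07). No 2 neighbours in this order overlapped between the 2 control libraries, although PPP1R15B and EIF2S1 lay as close as 28.2 and 27.9 and EIF2AK4 and EIF2AK1 as close as 41.3 and 40.8. On this scale the mRNA of the substrate stood below those of 2 of its kinases. The order depends on the 1 transcript length taken for each gene, and other isoform lengths were not examined. After siUPF1 the order was EIF2AK4 (41.0 ± 1.95), EIF2AK1 (37.6 ± 1.23), PPP1R15A (36.7 ± 4.07), PPP1R15B (28.1 ± 0.0356), EIF2S1 (27.5 ± 1.50), EIF2AK2 (21.6 ± 0.0144) and EIF2AK3 (20.0 ± 0.861). PPP1R15A moved from the sixth place to the third, where its 2 libraries overlapped those of EIF2AK1, and PPP1R15B and EIF2S1 overlapped each other. EIF2AK3 kept the last place.

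The kinases together came to 120 and 119 CPM per kilobase in the controls and to 123 and 117 after siUPF1, so their sum overlapped between the groups while its make-up shifted. EIF2AK3 made up 12.6% and 14.0% of that sum in the controls and 16.7% and 16.5% after siUPF1. EIF2AK1 went from 33.9% and 32.5% to 31.2% and 31.3%, and EIF2AK4 from 35.9% and 34.7% to 34.4% and 33.8%. EIF2AK2 overlapped, at 17.6% and 18.7% against 17.6% and 18.4%. These shares add to a fixed whole, so a higher share of 1 kinase lowers the others. The sum and the shares rest on levels per kilobase, with the limit given above.

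**Figure D3:**
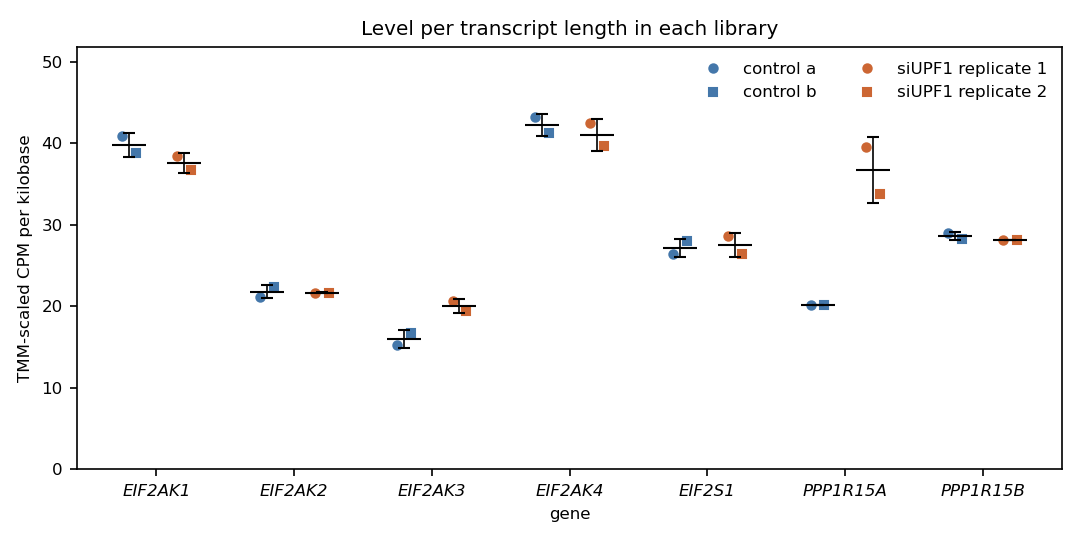
Level of each gene per kilobase of transcript in each library, in TMM-scaled CPM per kilobase (vertical axis, linear, from 0), with the mean and SD of each pair of libraries. PPP1R15A lies below PPP1R15B in the controls (20.1 against 28.6) and above it after siUPF1 (36.7 against 28.1), while EIF2AK3 is the lowest of the 7 genes in both groups.

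The lists of pathway genes around the 7 were described by counts beside the background of 16.8% higher and 9.14% lower. None of the 7 other eIF2 and eIF2B subunits passed (median log2 fold change -0.05), the lowest p belonging to EIF2S3, the tRNA-binding gamma subunit (-0.17, edgeR adjusted p = 0.0674), followed by the exchange factor subunits EIF2B1 (-0.07) and EIF2B4 (-0.07). None of the 3 catalytic subunits of protein phosphatase 1, with which PPP1R15A and PPP1R15B assemble, passed either, with PPP1CC at -0.17 (edgeR adjusted p = 0.0596), PPP1CA at -0.12 and PPP1CB at -0.07 and a median of -0.12. Of 8 reinitiation and alternative initiation factors 0 passed (median -0.10), among them EIF2A (-0.17), EIF5B (-0.17) and EIF1AX (-0.13). These counts of 0 come from edgeR's test at an adjusted p of 0.05, and DESeq2 also called 0 in each list; at an unadjusted p of 0.05 edgeR put 1, 1 and 2 genes of the 3 lists lower and 0 higher. Without siUPF1 replicate 1 the fallers were 1, 1 and 3, and with library size alone as the scaling 1, 1 and 2.

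Among 18 regulators of the kinases 1 rose and 6 fell, and the median log2 fold change was -0.16. The riser was KIAA0141, the older symbol of DELE1, which carries the mitochondrial stress signal to EIF2AK1 (0.20, edgeR adjusted p = 0.0312). The fallers were ZAK, a kinase that senses stalled ribosomes (-0.28, SE 0.07), HSP90AB1 (-0.24) and HSP90AA1 (-0.19), chaperones that bind eIF2alpha kinases, RPLP1 (-0.28) and RPLP0 (-0.19), proteins of the ribosomal stalk that activates EIF2AK4, and HSPA5 (-0.18), the chaperone that holds EIF2AK3 inactive. KIAA0141, HSP90AA1, RPLP0 and HSPA5 are named after their values were seen. HSP90AB1, HSP90AA1, RPLP0, RPLP1 and HSPA5 lay at 0.961, 0.871, 0.793, 0.754 and 0.565 reads per transcript base, and ZAK at 0.173. With the read density trend removed HSP90AB1 stood at -0.05, RPLP1 at -0.14 and ZAK at -0.32. The part of density in these falls was not tested further. The 6 fallers became 1 without control a, 1 without control b, 2 without siUPF1 replicate 2, 1 with DESeq2 and 3 with the read density trend removed, where the list's median was -0.06. KIAA0141 no longer passed without control a, without control b, without siUPF1 replicate 2 or with DESeq2.

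Of 28 genes of the ATF4 programme, the transcription that follows eIF2alpha phosphorylation, 20 rose, 0 fell (also 0 at an unadjusted p of 0.05 and with DESeq2) and 8 did not pass edgeR's test, and the median log2 fold change was 0.51 against -0.01 over all genes tested. PPP1R15A belongs to this programme by function and is not counted among the 28. For these genes and for PPP1R15A, a change in transcription and a change in mRNA decay cannot be told apart here. SLC1A4, a neutral amino acid transporter, rose by 1.87 (SE 0.09), ATF3, a transcription factor, by 1.19 (SE 0.09), and TRIB3, a pseudokinase that restrains ATF4, by 1.06 (SE 0.08). ATF4 itself, which is regulated mainly in translation, stood at -0.11 (edgeR adjusted p = 0.238). The others that did not pass were SHMT2 (0.11), PHGDH (-0.09), MTHFD2 (0.08), SLC7A5 (0.06), ASNS (0.02), PSAT1 (-0.006) and SLC3A2 (-0.0007). These are named after their values were seen. The number that rose ran from 16 with DESeq2 to 24 with the read density trend removed.

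The ATF6 and IRE1 branches are the arms of the unfolded protein response that do not run through EIF2AK3. Of their 19 genes 2 rose and 5 fell, with a median of -0.11. EDEM1, which sends misfolded glycoproteins to degradation, rose by 0.30, ERN1, the IRE1 kinase itself, rose by 0.55, and CALR, a chaperone, fell by 0.25 on the log2 scale. Without control a there were 0 risers and 0 fallers in this list, and with DESeq2 or with the trend removed 1 of each. Without control b there was 1 faller, and without siUPF1 replicate 2 there were 1 riser and 2 fallers. ERN1 is a low-count gene whose log2 fold change ran from 0.27 to 0.91 over the alternatives.

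EIF2AK2 is itself interferon-induced. Of 18 tested interferon-induced genes 4 rose and 3 fell, with a median of 0.02, and the 3 with the smallest p were IFIT3 (1.33, SE 0.24), MX1 (0.61, SE 0.14) and IRF9 (0.56, SE 0.14), 2 antiviral proteins and a subunit of the interferon-activated transcription factor. The 3 fallers were IFITM1, IFIH1 and IFI6, named after their values were seen; there were 0 without control a and 0 with DESeq2, and 1 each without control b and without siUPF1 replicate 1. Of 13 immediate-early and other short-lived transcripts 6 rose and 0 fell by edgeR's test (also 0 at an unadjusted p of 0.05 and with DESeq2), with a median of 0.25, led by JUN (1.08), FOSL1 (1.58) and KLF6 (0.36), transcription factors of the early stress and growth response. That count was 3 without control a, 3 without control b and 3 with DESeq2.

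**Figure D4:**
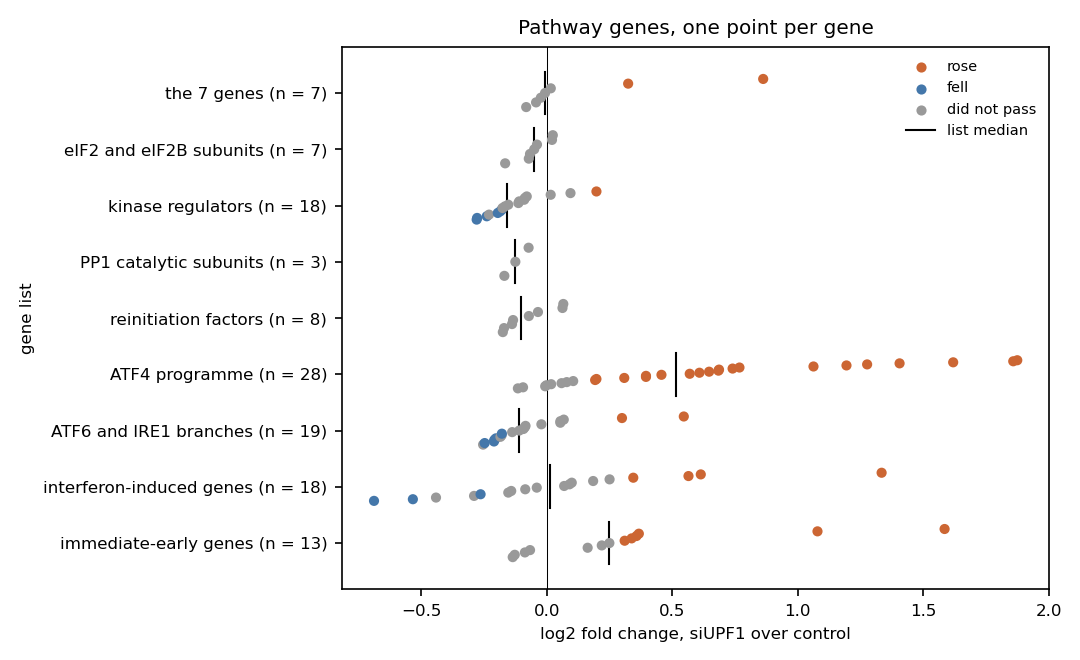
Log2 fold change, siUPF1 over control (horizontal axis), of each tested gene of the 7 and of 8 pathway lists (rows; each point is a gene, offset vertically within its row for legibility). Orange points rose, blue points fell and grey points did not pass edgeR's test, and the vertical tick is the list's median; it lies at 0.51 for the ATF4 programme and at -0.16 for the kinase regulators.

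Read density, the mean count of a gene over the 4 libraries divided by its transcript length in bases, moved with the changes across the table. Density reached at most 1.12 reads per base among genes with at least 100 counts. Among the 1072 genes at 0.5 reads per base or more, 2.15% rose and 15.8% fell, and their median log2 fold change was -0.12, against 17.9% and 8.65% of the genes below that density. The 7 genes all lay below it, from 0.181 (EIF2AK3) to 0.416 (EIF2AK4), with PPP1R15A at 0.289 and PPP1R15B at 0.284. In that range 5521 genes were tested, of which 14.3% rose and 7.43% fell, with a median of -0.01. PPP1R15A and PPP1R15B had nearly the same density and different changes. Density is a mean over all 4 libraries and so includes the change itself, and its part in these 2 values was not tested. With the trend removed, the log2 fold change of EIF2AK3 was 0.28 (edgeR adjusted p = 0.0139) and both calls were kept. In the ATF4 programme the 20 risers had densities of 0.0249 to 0.504, and the 8 that did not pass had 0.615 to 0.805. With the trend removed 24 of the 28 rose, and the list's median was 0.51, as in the main fit. The part of density in that split was not tested further.

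**Figure D5:**
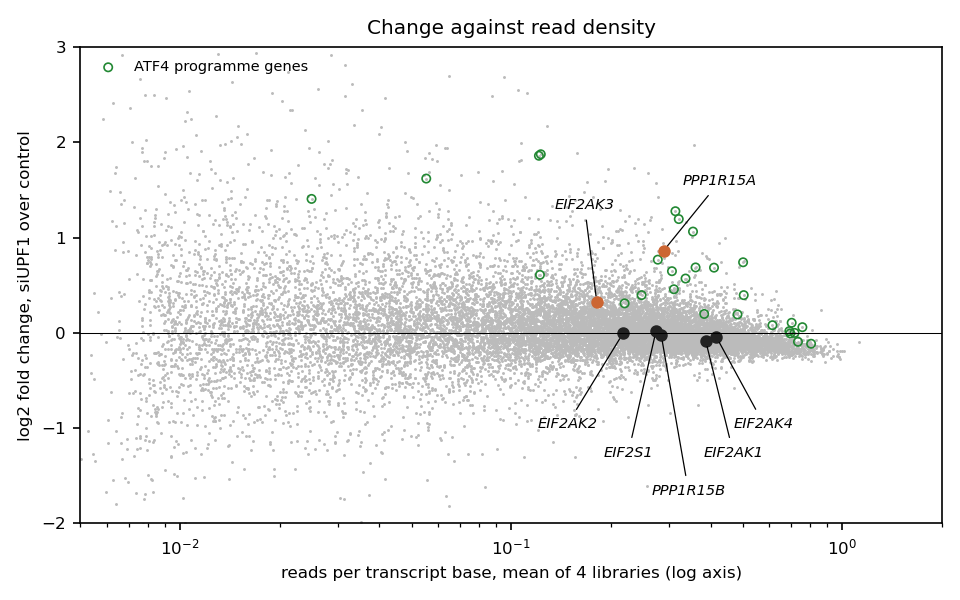
Log2 fold change, siUPF1 over control (vertical axis), against read density in reads per transcript base (horizontal axis, logarithmic) for all genes tested (grey; 24 of 15557 lie outside the axes). The 7 genes are labelled, in orange where they rose, and green rings are the ATF4 programme; PPP1R15A and PPP1R15B sit at almost the same density, 0.289 and 0.284.

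The genes whose pattern over the 4 libraries was most like that of PPP1R15A were UPP1, ZNF204P, SERPINB9, ANXA3 and MIR4435-2HG, at Euclidean distances of 0.0566, 0.0593, 0.0645, 0.0692 and 0.0767 between log2 CPM values centred on each gene's own mean, among 13633 genes with a mean of at least 5 CPM. Each of the 5 shared the order of the libraries within the siUPF1 pair, higher in replicate 1 than in replicate 2, which follows from choosing them by distance. For EIF2AK3 the nearest were PHACTR2, ARNTL2, ZNF793-AS1, GTF2H1 and CCSER2, at distances of 0.0221, 0.0226, 0.0239, 0.0288 and 0.0318. Of these 10, ZNF793-AS1 did not pass the test (log2 fold change 0.30, edgeR adjusted p = 0.242). A short distance over 4 libraries is a description of those libraries.

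The transcripts of the 7 genes were compared with those of other genes in GENCODE 29 (GRCh38), in which 13278 of the 15557 tested genes (85.4%) were matched. A classical mark of a decay target is a main-frame stop codon followed by an exon junction more than 50 nt downstream. It was found in the longest coding transcript of 0 of the 7 genes and in 0.474% of all matched genes. Stop codons of upstream reading frames were not part of this search, so junctions after them were not looked for. EIF2AK1 and EIF2AK2 each have 1 annotated transcript of the nonsense-mediated decay class, and PPP1R15A and EIF2AK3, which rose, have none; 41.1% of matched genes have at least 1. Upstream AUGs were present in 5 of the 7, against 50.8% of matched genes. EIF2S1 had 8, EIF2AK3 5, PPP1R15A 2, PPP1R15B 2 and EIF2AK2 1, and EIF2AK1 and EIF2AK4 had 0. At least 1 upstream reading frame closed before the start codon in 5 of the 7 (43.1% of matched genes): 8 in EIF2S1, 4 in EIF2AK3, 2 each in PPP1R15A and PPP1R15B and 1 in EIF2AK2. Both counts depend on the transcript start taken. The GENCODE transcript begins 112 bases before the RefSeq start for EIF2AK3 and more than 250 bases before it for EIF2S1. In these 2 genes the added stretch holds upstream AUGs counted here. Counts from the RefSeq starts were not made. PPP1R15A and PPP1R15B, which each have 2 closed upstream frames, differed in the length of the 3' untranslated region, 84 nt against 2705 nt, where the median of matched genes was 988 nt. EIF2AK3 had 993 nt, EIF2AK4 506 nt, EIF2AK1 2429 nt, EIF2AK2 2130 nt and EIF2S1 3076 nt. The counts pool all transcripts of a gene, so a change in 1 isoform is not visible in them.

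In the annotation EIF2AK1 shares 532 nt of exon with AIMP2 on the opposite strand, EIF2S1 269 nt with ATP6V1D, EIF2AK2 35 nt with GPATCH11, and EIF2AK2 401 nt and EIF2AK3 781 nt with antisense genes that have no row in the table used, and EIF2AK4, PPP1R15A and PPP1R15B share none. Whether counting used strand is not given in these sources, so reads of these stretches cannot be told apart, which touches the value of EIF2AK3 and not that of PPP1R15A.

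RefSeq promoter windows (GRCh38.p14, 250 bases before the gene's start) were matched for 6 of the 7 genes, EIF2AK1 being named only. They were searched on both strands for the CRE (TGACGTCA), the CARE bound by ATF4 with C/EBP partners (TGATGNAA), AP-1 (TGANTCA), the ISRE (GAAANNGAAA) and the ERSE (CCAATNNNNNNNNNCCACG). PPP1R15A holds a CRE, a motif in 1.65% of 35116 promoters, 58 to 51 bases before its RefSeq start, which lies 29 bases after the GENCODE start. PPP1R15B holds a CARE 227 to 220 bases before its start (3.14% of promoters), and EIF2AK4 an AP-1 match, TGATTCA, 212 to 206 bases before (6.57%). No window of the 6 held an ISRE (3.02%) or an ERSE (0.074%), and that of EIF2AK3 held none of the 5 motifs. These windows end at the RefSeq start: 112 of the 250 bases for EIF2AK3 and 67 for EIF2AK2 lie inside the GENCODE transcript, and the whole window of EIF2S1 lies within its GENCODE gene, so less than 250 bases, or none, of the sequence before the GENCODE start was searched for these genes. A match here is a string of letters in a window, and binding was not measured. The promoters of the 2 phosphatase subunits are shown because these genes differ in their change, with the motif in capitals: 221 bases at chr19:48872171-48872391 (plus strand), ending just before the GENCODE transcript begins and so 29 bases short of the RefSeq start, and 250 bases at chr1:204411818-204412067 (minus strand).
PPP1R15A: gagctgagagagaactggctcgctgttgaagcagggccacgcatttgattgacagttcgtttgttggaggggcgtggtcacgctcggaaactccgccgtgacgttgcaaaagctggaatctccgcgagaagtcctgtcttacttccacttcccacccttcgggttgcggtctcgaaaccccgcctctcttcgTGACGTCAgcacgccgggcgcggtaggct
PPP1R15B: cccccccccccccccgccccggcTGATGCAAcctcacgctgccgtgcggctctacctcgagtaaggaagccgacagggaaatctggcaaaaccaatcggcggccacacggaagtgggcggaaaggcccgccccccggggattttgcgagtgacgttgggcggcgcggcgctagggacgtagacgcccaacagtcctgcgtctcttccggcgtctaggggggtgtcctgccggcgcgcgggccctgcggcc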

How the data were processed

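Per the submitters' processing notes, the authors' tools were STAR and DESeq2 on hg19, with no versions given; strand, multimapping and duplicate handling are not given in the sources used here. The authors deposited 1 table with raw counts per gene for the 4 libraries and RPKM values; the deposited RPKM of the siUPF1 libraries served only, with the counts, to derive each gene's transcript length, and 2 columns of per-sample values (control RPKM) were not used. Lengths were 0.830 to 1.01 times those of GENCODE 29 for the 7 genes.

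Counts were tested with edgeR 4.0.16 in R 4.3.3 (glmQLFit, glmQLFTest, two-sided, TMM, filterByExpr, Benjamini-Hochberg over 15557 genes; 385 were left out), siUPF1 against siLuc without covariates, all 4 libraries in the fit. SE is the size of the log2 fold change over the square root of F. The genes and lists were chosen with earlier results of these data known, so lists carry counts and medians only. Named were UPF1, the 7 genes, the 3 genes with the smallest p in each list, and the 5 genes nearest in pattern to the 2 of the 7 with the smallest p. The fit shared 1 spread among genes of like level (biological coefficient of variation 4.47%). Library pairs differed by a chi-square per degree of freedom of 1.69 (controls) and 2.83 (siUPF1), against 8.61 to 9.36 across groups. Tested on simulated data for siUPF1 against siLuc (15557 genes, 200 changed), the fit recovered 90% of 2-fold and 66% of 1.41-fold changes with 6 false calls. The simulated counts took their spread from this same fit, so the false calls cannot show whether that spread is too small. Far more genes were called in the data (2613 higher and 1422 lower), so recovery there may differ. Alternatives were RLE or library-size scaling, DESeq2 1.42.0, limma-voom (limma 3.58.1), other filters, an adjusted p of 0.1, each library left out, and a loess trend on read density removed. The alternative at an adjusted p of 0.1 was the main fit read at a looser threshold, so its values equal the main ones.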

Additional observations from a re-analysis of the deposited data

How the results depend on the processing

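PPP1R15A rose under all 12 alternatives and EIF2AK3 under 11; without control a EIF2AK3 stood at 0.258 (edgeR adjusted p = 0.121; 0.258 to 0.389 with a library left out), so that the number of the 7 genes that rose ran from 1 to 2 with a library left out. The sign of 3 genes that did not pass turned: EIF2AK2 ran from -0.0438 to 0.0243 with a library left out, EIF2AK4 from -0.0909 to 0.00603 and was 0.00344 with the read density trend removed, and EIF2S1 ran from -0.0395 to 0.0717. PPP1CB, also not called, ran from -0.161 to 0.0143. Of the pathway genes 13 fell; that count was 2 with DESeq2, 21 at an adjusted p of 0.1, 7 with the trend removed, and 1 to 18 with a library left out. Over all genes the 2613 that rose became 1274 with DESeq2 and 1444 to 2764 with a library left out, and the 1422 that fell became 465 and 552 to 1522. The cause was not tested, except that a fit without a library has fewer samples; its lone partner was taken to have the spread of the other group. No paired analysis was possible because both control count columns carry the same heading, which ties neither to a replicate number.

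With 2 libraries a group, the 95% intervals of the 5 genes that did not pass lay between log2 fold changes of -0.22 and 0.16. None reached the size of the EIF2AK3 change, 0.32, and smaller changes of either sign remain possible. These intervals rest on the spread shared in the fit. The trend-removed fit had prior degrees of freedom of 6.2 and a biological coefficient of variation of 3.33%, against infinite and 4.47% in the fit reported.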
